A study of Neurospora crassa with 6 samples.

Results

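The transcriptome of vegetative hyphae of the Δ*mak-1* mutant of *Neurospora crassa*, a filamentous fungus, was compared with that of wild-type hyphae of the same age. Each strain gave 1 library at this stage. An entry of the deposited table was taken into the comparison where its level was above 10 RPKM (reads corrected for gene length and library size) in at least 1 of the 2 libraries. This held for 5320 of 9872 entries, 5313 of them with an NCU locus. Among the genes named here, *os-4* lay just outside this limit with 8.80 RPKM in the wild type and 9.79 RPKM in the mutant, and NCU10062 lay just inside with 4.89 and 10.04 RPKM.

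The series holds 6 libraries, from wild-type, Δ*mak-1* and Δ*mak-2* cultures taken as vegetative hyphae or at the start of protoperithecium formation. The strains came from the Fungal Genetics Stock Center, and both mutants are knockout strains of mating type a. Which of the wild-type strains was sequenced is not stated in the labels, and 3 genes of mating type A (*mat A-1* to *mat A-3*) were at 0 reads in each of the 6 libraries. For the hyphal stage all strains grew with shaking in Vogel's medium with 2% glucose, at 28°C and for 22 h. The protoperithecial cultures grew for 3.5 days at 25°C in the dark on cellophane over crossing medium with 0.1% sucrose. Light during the hyphal cultures is not given in the sources used here. Each library was made from the mixed RNA of 3 repeats. No spread between cultures can therefore be had, and the text prints no p-value.

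MAK-1 is the MAP kinase of the cell wall integrity (CWI) pathway. In fungi this pathway passes signals from sensors in the plasma membrane, such as WSC-1 and HAM-7, through protein kinase C to a cascade of the kinases MIK-1, MEK-1 and MAK-1. It is known for its role in building and repairing the cell wall, and in *N. crassa* it is also needed for hyphal fusion and for female development.

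The wild-type library held 2602076 mapped reads and the Δ*mak-1* library 3358476. A gene of median length (1365 bases) at 10 RPKM holds 35.5 wild-type reads or 45.8 mutant reads. Reads were recovered from the steps of the deposited values, and the range given with a ratio is its exact (Clopper-Pearson) 95% interval from the 2 read counts. Such intervals cover only counting error, and neither cultures nor amplification enter them. A gene is called raised where the ratio of the mutant to the wild type was above 2, and lowered where it was below 0.5.

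More genes were raised than lowered in the Δ*mak-1* hyphae. Of the 5320 genes, 983 (18.5%) were raised, 360 (6.77%) were lowered and 3977 lay within 2-fold. The raised genes had a median of 11.9 RPKM in the wild type and 33.6 RPKM in the mutant, and the lowered genes 42.3 and 11.6 RPKM. These levels follow in part from the rule, which takes a gene through its higher library alone. Of the raised genes 433 were at or below 10 RPKM in the wild type, and of the lowered genes 167 in the mutant. Among the raised genes 329 passed 3-fold and 31 passed 10-fold, while 193 of the lowered genes were lower by more than 3-fold and 37 were below 0.1 times the wild-type level. For 1298 of the 1343 called genes the counting interval lay wholly on one side of 1. Calls and intervals come from the same 2 libraries, so this number is no separate support for the calls. The whole interval lay beyond the 2-fold threshold for 403 raised and 203 lowered genes.

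The surplus of raised genes depends on the scaling of the libraries. The median ratio over all genes compared was 1.33, a shift of 0.41 on the log2 scale, and division by the median of ratios left 405 genes raised and 606 lowered. The share of raised genes among the called genes then fell from 73.2% to 40.1%, and was 50.1% with the upper quartile, 40.9% with a median of ratios over all 6 libraries and 27.2% with β-tubulin. Of the 983 raised genes 456 stayed above 2-fold after division by the median of ratios, which is 8.57% of all 5320 genes. This count keeps the 10 RPKM limit on the deposited values, while the count of 405 applies it to scaled values. The 606 lowered genes are 11.4% of all genes. Scaled counts of lists and groups are to be read against these shares. Below, ratios are as deposited, and values read against the median of ratios are called scaled.

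The most abundant transcripts took a smaller share of the mutant library. The 10 most read entries held 22.3% of mapped reads in the wild type and 17.2% in the mutant, and the 100 most read held 49.0% and 41.0%. The 10 largest falls in RPKM together went from 12.2% to 3.25% of reads. RPKM is a share of the library, so such a fall lifts the values of all other genes, and its part in the median ratio was not tested.

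**Figure D1:**
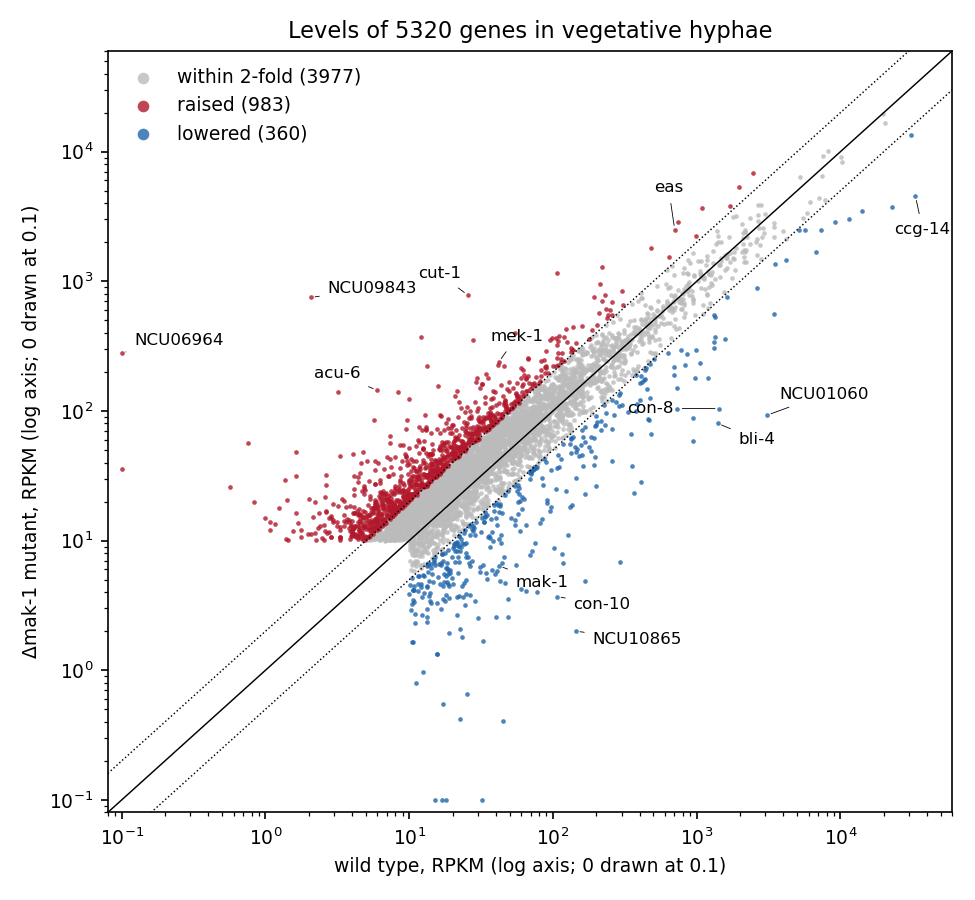
RPKM of each of the 5320 genes in wild-type hyphae (horizontal log axis) and in Δ*mak-1* hyphae (vertical log axis), 1 library each, with values of 0 drawn at 0.1. The solid line marks equal values and the dotted lines 2-fold; 983 genes are raised, 360 are lowered, and the cloud lies above the line of equal values, as the median ratio of 1.33 states.

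The deleted gene was low but not at 0. *mak-1* (NCU09842) had 42.1 RPKM (255 reads) in the wild type and 6.39 RPKM (50 reads) in the mutant, a ratio of 0.152 (0.110 to 0.206). It had 40.0 RPKM in the Δ*mak-2* hyphae, where it is intact. Its level thus went in the direction the labels state, and 50 reads were still assigned to it.

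The gene next to *mak-1* was raised far more than any other with reads in both libraries. NCU09843 had 2.07 RPKM (9 reads) in the wild type and 751 RPKM (4214 reads) in the mutant, a ratio of 363 (191 to 794). Its gene model overlaps that of *mak-1* by 1160 bases in the NC12 assembly. Strand-specific counting is not stated, so reads of these overlapping genes cannot be told apart. On the other side NCU09841 was raised from 67.5 to 257 RPKM, a ratio of 3.81 (3.02 to 4.86).

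The change was not shared by the whole neighbourhood. NCU10063, the next gene but one, had 438 and 493 RPKM (1.12, 1.06 to 1.19), and NCU10062 beyond it was raised from 4.89 to 10.04 RPKM (2.05, 1.15 to 3.82). On the side of NCU09843, NCU09844 had a ratio of 0.522 and NCU09845 one of 0.508, neither of which passed the threshold. Against the same wild-type library, the Δ*mak-2* hyphae had a ratio of 1.51 for NCU09843 and of 1.25 for NCU09841. At the protoperithecial stage NCU09843 was raised 11.2-fold in the Δ*mak-1* mutant, from 14.3 to 161 RPKM. The part of the deletion construct in these values was not tested.

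**Figure D2:**
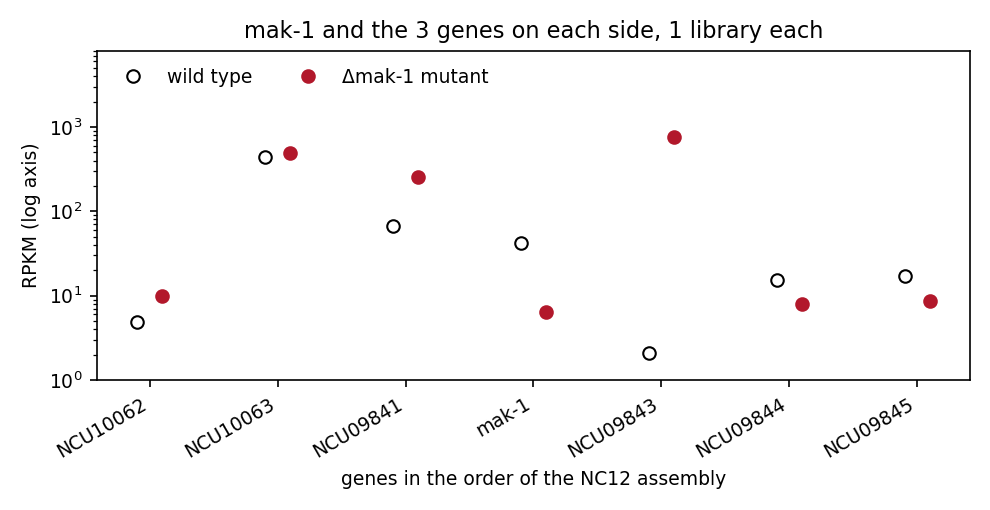
RPKM (log axis) of *mak-1* and the 3 genes on each side in the order of the NC12 assembly, with open points for wild-type hyphae and filled points for Δ*mak-1* hyphae, 1 library each. *mak-1* goes from 42.1 to 6.39 RPKM and NCU09843 beside it from 2.07 to 751 RPKM, while NCU10063 has 438 and 493 RPKM.

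Markers of other structures were checked before the gene groups. Of 7 genes of protoperithecia and perithecia, 5 were below 10 RPKM in both libraries, and *tnr-2*, a melanin gene, had 0 reads in both. The 2 others were lowered. *app*, which encodes an abundant perithecial protein, had 48.3 RPKM (116 reads) in the wild type and 2.58 RPKM (8 reads) in the mutant, a ratio of 0.0534 (0.0225 to 0.109). *scy-1*, the scytalone dehydratase gene of melanin synthesis, had 35.9 and 10.8 RPKM (0.300, 0.167 to 0.520). Each was the only lowered gene of its list, with 1 of 6 genes of sexual development and 1 of 2 of melanin synthesis lowered and none raised. The median ratios of these lists were 1.26 and 0.898, and over all genes 6.77% were lowered and 18.5% raised. The summed level of the markers was 88.6 RPKM in the wild type and 15.5 RPKM in the mutant, against 656 RPKM for *app* alone in wild-type protoperithecial cultures. Of 6 markers of conidia and conidiophores 3 were lowered and 1 raised, and their summed level was 2359.5 RPKM in the wild type and 2669 RPKM in the mutant. Most of the mutant sum came from the raised gene, *eas*, with 703 and 2504 RPKM. The lowered genes were *con-8* with 1431 and 104 RPKM, *con-10* with 106 and 3.70 RPKM and *con-6* with 64.5 and 4.05 RPKM. In bulk RNA, fewer cells of a type and less RNA per cell cannot be told apart, and the part of such cells in the values below was not tested.

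The kinase directly upstream of MAK-1 was among the genes raised. Of the 13 genes listed for the CWI pathway 9 were compared, and 3 of them were raised and 1, *mak-1* itself, was lowered (median ratio 1.82, against 1.33 over all genes, of which 18.5% were raised and 6.77% lowered). These shares are also the ones that the counts of the other lists are to be read against. *mek-1*, which encodes the MAP kinase kinase, had 41.9 RPKM (185 reads) in the wild type and 238 RPKM (1357 reads) in the mutant, a ratio of 5.68 (4.87 to 6.66). *pkc-1*, which encodes protein kinase C, had 4.93 RPKM (44 reads) and 24.7 RPKM (285 reads), a ratio of 5.02 (3.64 to 7.06). Both stayed above 2-fold when scaled, *mek-1* at 4.28 and *pkc-1* at 3.78.

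The sensor and transcription factor genes described here did not pass the threshold. The sensor gene *ham-7* had 37.5 and 68.0 RPKM (1.82, 1.42 to 2.34). The other sensor gene, *wsc-1*, had 252 and 224 RPKM (0.891, 0.832 to 0.953). Of the transcription factor genes, *rlm-1* had 16.8 and 15.04 RPKM (0.896, 0.676 to 1.19) and *adv-1* 53.8 and 79.1 RPKM (1.47, 1.31 to 1.65). The uppermost kinase gene *mik-1* was below the RPKM limit with 0.648 RPKM (9 reads) and 1.90 RPKM (34 reads).

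Set against the same wild-type library, in the Δ*mak-2* hyphae *mek-1* had a ratio of 0.623, *pkc-1* one of 0.743 and *adv-1* 4.41. At the protoperithecial stage, from separate cultures, the Δ*mak-1* mutant had ratios of 7.92 for *mek-1*, 2.05 for *pkc-1* and 4.16 for *ham-7*. Both kinase genes were thus above 2-fold at both stages of the Δ*mak-1* mutant.

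The pheromone response (PR) pathway, whose MAP kinase is MAK-2, had 1 of 7 genes raised and none lowered (median ratio 1.66, scaled 1.25). *ham-5*, which encodes the scaffold of this cascade, had 11.4 and 29.6 RPKM, a ratio of 2.60 (2.08 to 3.28) and 1.96 when scaled. *mak-2* itself had 68.2 RPKM (189 reads) and 105 RPKM (374 reads), a ratio of 1.53 (1.28 to 1.84), and its target gene *pp-1* had 13.5 and 25.5 RPKM (1.88, 1.46 to 2.43). The kinase genes *nrc-1* (1.66), *mek-2* (1.63) and the adaptor gene *ste-50* (1.68) lay close together and none passed the threshold.

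In the osmosensing (OS) pathway 2 of 6 genes were raised and none lowered (median ratio 1.74, scaled 1.31). *os-5*, the MAP kinase kinase gene, had 8.58 RPKM (55 reads) in the wild type and 54.9 RPKM (454 reads) in the mutant, a ratio of 6.40 (4.83 to 8.62). *os-1*, which encodes the histidine kinase at the top of the pathway, had 6.41 and 15.9 RPKM (2.48, 1.87 to 3.33). *os-2*, the MAP kinase gene, had 64.8 and 74.4 RPKM (1.15, 0.975 to 1.36). The MAP kinase kinase genes of the CWI and OS pathways were therefore both raised above 5-fold, while *mek-2* of the PR pathway had a ratio of 1.63.

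Among 8 genes of hyphal fusion and of the STRIPAK complex, a conserved phosphatase assembly, 3 were raised and 1 was lowered (median ratio 1.61), where 18.5% of all genes were raised and 6.77% lowered. *ham-9* had 22.1 and 64.9 RPKM (2.93, 2.44 to 3.54), *mob-3*, a STRIPAK subunit gene, 15.8 and 36.1 RPKM (2.28, 1.75 to 3.01), and *ham-4*, another, 12.4 and 26.2 RPKM (2.10, 1.60 to 2.79). Only *ham-9* of these stayed above 2-fold when scaled (2.21). *ham-8* had 109 RPKM (582 reads) and 45.6 RPKM (314 reads), a ratio of 0.418 (0.363 to 0.480), against 1.14 in the Δ*mak-2* hyphae.

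Genes of the cell wall went in both directions. Of 4 genes of chitin and glucan synthesis 1 was raised, the chitin synthase gene *chs-3*, with 6.05 RPKM (42 reads) and 17.6 RPKM (158 reads), a ratio of 2.91 (2.06 to 4.20). The β-1,3-glucan synthase gene *fks* had 45.2 and 67.6 RPKM (1.49, 1.36 to 1.64) and *chs-1* had 12.8 and 21.8 RPKM (1.70, 1.35 to 2.15). Of 22 genes of glucan remodelling and wall proteins 3 were raised and 4 lowered, with a median ratio of 0.925, and when scaled 2 were raised and 8 lowered around a median of 0.696.

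The 4 lowered genes of this list encode wall proteins and a chitinase. *ncw-5*, which encodes a wall protein without an anchor, had 697 RPKM (1489 reads) in the wild type and 190 RPKM (525 reads) in the mutant, a ratio of 0.273 (0.247 to 0.302). *acw-4*, which encodes an anchored wall protein, had 859 and 277 RPKM (0.323, 0.301 to 0.346), and *acw-10* had 54.3 and 26.5 RPKM (0.488, 0.379 to 0.625). The chitinase gene *chit-1* had 25.4 and 7.47 RPKM (0.294, 0.233 to 0.368). *gel-3*, with the highest level of the 4 *gel* genes of glucanosyltransferases compared, had 4166 and 2110 RPKM (0.507, 0.497 to 0.517) and lay at the edge of the threshold.

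Of the 3 raised wall genes, *acw-6* had 218 and 702 RPKM (3.22, 2.97 to 3.49), *ncw-2* 302 and 839 RPKM (2.78, 2.62 to 2.94) and *gel-5* 5.94 and 13.8 RPKM (2.32, 1.38 to 4.07). In the Δ*mak-2* hyphae *ncw-2* had a ratio of 0.199 to the same wild-type library and *chit-1* one of 5.67. For both genes the mutants therefore lay on opposite sides of the wild type. *ncw-3*, with the highest level in the list, had 20456 RPKM in the wild type and 16488 RPKM in the mutant (0.806, 0.796 to 0.816).

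**Figure D3:**
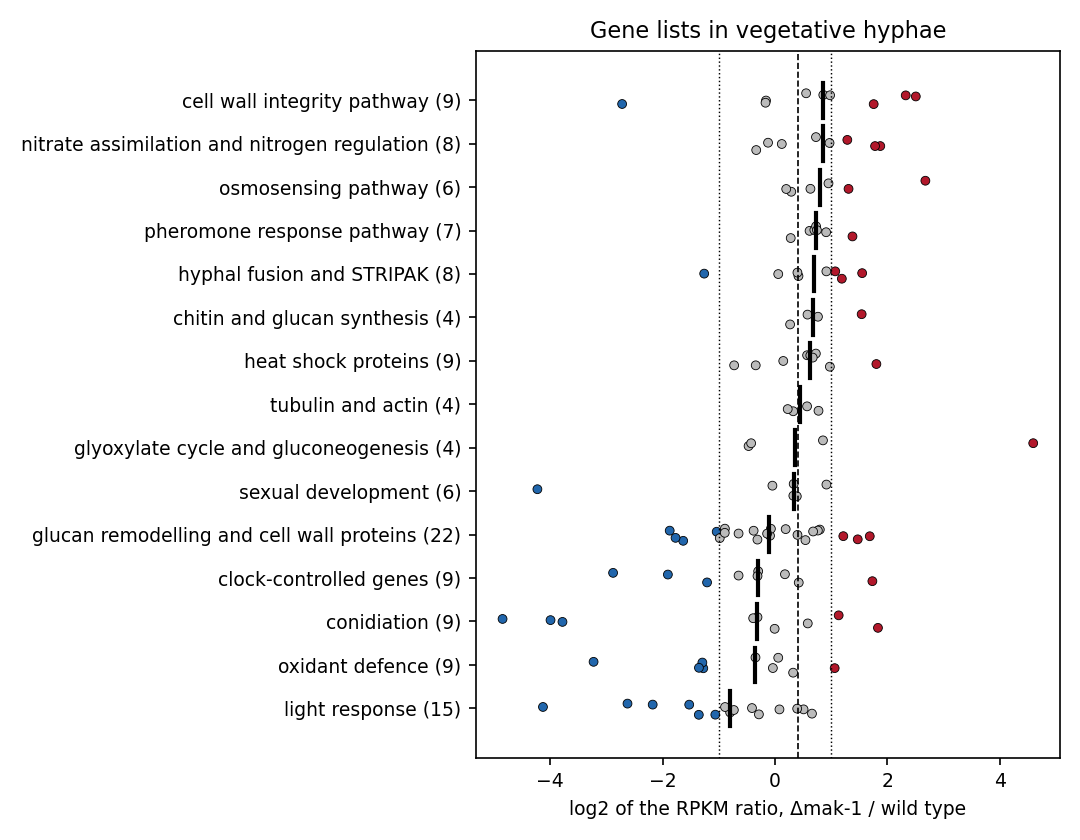
RPKM ratio of Δ*mak-1* to wild-type hyphae as log2, 1 point per gene, in the 15 lists with at least 4 genes compared, with a bar at the median of each list, dotted lines at 2-fold and a dashed line at the median of all genes (1.33). The points of the light response reach from 0.0572 to 1.58 around a median of 0.576, and the median of the CWI pathway is 1.82.

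The 15 listed genes of the light response were lowered or within 2-fold in the mutant hyphae, and none of these was raised. Blue light acts in *N. crassa* through the White Collar complex, whose targets include the genes of carotenoid synthesis. Of 15 listed genes 6 were lowered, against 6.77% of all genes, with a median ratio of 0.576, or 0.433 when scaled, where 9 were lowered. *bli-4*, a blue-light-induced gene, had 1399.5 RPKM (4359 reads) in the wild type and 80.1 RPKM (322 reads) in the mutant, a ratio of 0.0572 (0.0509 to 0.0641). *bli-3*, another, had 3472 and 563 RPKM (0.162, 0.154 to 0.171).

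Of the carotenoid genes, *al-1* and *al-2* were lowered. *al-1*, the phytoene dehydrogenase gene, had 1049.8 RPKM (4884 reads) and 232 RPKM (1396 reads), a ratio of 0.221 (0.209 to 0.235), and *al-2*, the phytoene synthase gene, had 3479 and 1361 RPKM (0.391, 0.380 to 0.402). *al-3*, the geranylgeranyl diphosphate synthase gene, had 87.2 and 50.2 RPKM (0.576, 0.489 to 0.677) and did not pass the threshold, and *ylo-1*, another carotenoid gene, had 44.0 and 46.6 RPKM (1.06, 0.878 to 1.28). The photolyase gene *phr*, with 147 and 51.1 RPKM (0.347, 0.304 to 0.396), and the cryptochrome gene *cry*, with 73.0 and 35.0 RPKM (0.480, 0.409 to 0.562), were lowered as well.

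The regulators of the response stayed within 2-fold as deposited, and *vvd* fell below 0.5 when scaled. *wc-1*, which encodes the photoreceptor of the White Collar complex, had 12.4 and 9.38 RPKM (0.754, 0.572 to 0.993), and *vvd*, which encodes the photoreceptor that damps the response, had 1753 and 1056 RPKM (0.603, 0.569 to 0.638). The clock gene *frq* had 160 and 210 RPKM (1.32, 1.22 to 1.42). Over the 286 genes that the deposited annotation places under response to light stimulus, 62 (21.7%) were lowered and 31 (10.8%) raised, with a median ratio of 0.857, or 0.645 when scaled. The raised ones include *cut-1* (30.7) and *eas* (3.56), both described below. The light that these shaken cultures received is not given, and its part in the values was not tested.

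In the Δ*mak-2* hyphae, read against the same wild-type library, 5 of the 15 listed light genes were lowered, where 6.41% of all genes were lowered, and none was raised, where 7.26% of all genes were (median ratio 0.537). *bli-4* had a ratio of 0.340 there, *al-1* 0.443, *al-2* 0.509 and *bli-3* 0.559. Because the wild-type library is shared, a wild-type value that stands high lowers both ratios.

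The genes named for conidiation, the formation of asexual spores, split in 2 directions. Of 9 compared, 3 were lowered and 2 raised (median ratio 0.806). *con-10* had 106 RPKM (156 reads) in the wild type and 3.70 RPKM (7 reads) in the mutant, a ratio of 0.0348 (0.0138 to 0.0733), *con-6* had 64.5 and 4.05 RPKM (0.0628, 0.0280 to 0.124), and *con-8* had 1431 RPKM (4375 reads) and 104 RPKM (411 reads), a ratio of 0.0728 (0.0656 to 0.0805). *con-13* had 5 reads in the wild type and 0 in the mutant.

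Against these, *eas*, which encodes the hydrophobin that coats conidia, was raised from 703 RPKM (1386 reads) to 2504 RPKM (6375 reads), a ratio of 3.56 (3.36 to 3.78), and its ratio in the Δ*mak-2* hyphae was 66.9. The regulator gene *acon-2* was raised from 7.62 to 16.7 RPKM (2.20, 1.57 to 3.12), which became 1.65 when scaled. *fl*, which encodes the transcription factor of conidiophore formation, had 53.0 RPKM (328 reads) and 52.8 RPKM (422 reads), a ratio of 0.997 (0.861 to 1.16). The lowered *con* genes and the raised *eas* thus stood beside an even level of *fl*.

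Clock-controlled genes were among the largest falls in level. Of 9 compared, 3 were lowered and 1 raised. *ccg-14* went from 33222 RPKM (84111 reads), the highest level in the wild-type library among the genes named here, to 4514 RPKM (14752 reads), a ratio of 0.136 (0.134 to 0.138). *ccg-13* had 31172 and 13500.4 RPKM (0.433, 0.428 to 0.438), and *ccg-1*, a gene also known for repression by glucose, had 11388 and 3042 RPKM (0.267, 0.260 to 0.275). *ccg-8*, which encodes a transcription factor, was raised from 26.7 to 88.9 RPKM (3.33, 2.65 to 4.22). *ccg-7*, the glyceraldehyde-3-phosphate dehydrogenase gene, had 10224 and 8249 RPKM (0.807, 0.797 to 0.817).

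Other large falls in RPKM came from genes without a symbol. NCU07232 had 22831 RPKM in the wild type and 3716 RPKM in the mutant (0.163, 0.159 to 0.167), and NCU05395 had 14090 and 3482 RPKM (0.247, 0.242 to 0.252). With *ccg-13* and *ccg-14*, NCU07232 took 7.53% of all wild-type reads and 1.87% of the mutant's. The largest rises in RPKM were smaller than these falls. NCU10051 went from 2470.5 to 6864 RPKM (2.78, 2.72 to 2.84) and NCU06940 from 1952 to 5294 RPKM (2.71, 2.62 to 2.81).

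Of 9 genes of oxidant defence 4 were lowered and 1 raised (median ratio 0.787), where 6.77% of all genes were lowered and 18.5% raised. *cat-3*, which encodes a large-subunit catalase of growing hyphae, had 355 RPKM (2299 reads) in the wild type and 37.9 RPKM (317 reads) in the mutant, a ratio of 0.107 (0.0947 to 0.120). *cat-1*, the catalase gene of conidia, had 1318 and 545 RPKM (0.413, 0.398 to 0.429), the catalase-peroxidase gene *cat-2* 434 and 177 RPKM (0.409, 0.385 to 0.434), and *sod-2*, the mitochondrial superoxide dismutase gene, 197 and 77.1 RPKM (0.392, 0.332 to 0.461). The cytosolic enzyme stood apart from the mitochondrial one, and its gene *sod-1* had 271 and 264 RPKM (0.975, 0.859 to 1.11). *cat-4* was raised from 8.18 to 17.1 RPKM (2.09, 1.39 to 3.22), which became 1.57 when scaled.

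Ratios of the Δ*mak-2* hyphae to the same library were 0.171 for *cat-3*, 0.312 for *cat-2*, 0.529 for *cat-1*, 1.06 for *sod-2* and 4.90 for *cat-4*. At the protoperithecial stage of the Δ*mak-1* mutant *cat-3* was lowered too, from 331 to 115 RPKM, a ratio of 0.346.

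Genes of nitrogen assimilation were raised in 3 of 8 cases and lowered in none (median ratio 1.81, scaled 1.36), against 18.5% and 6.77% of all genes, and when scaled 2 of 8 were raised. *am*, the NADP-dependent glutamate dehydrogenase gene, went from 96.1 RPKM (393 reads) to 352 RPKM (1860 reads), a ratio of 3.67 (3.29 to 4.10), and the glutamine synthetase gene *gln-1* from 110 to 377 RPKM (3.44, 3.09 to 3.84). *nmr*, which encodes a negative regulator of nitrogen use, went from 27.4 to 66.9 RPKM (2.44, 1.93 to 3.12), or 1.84 when scaled. The nitrate reductase gene *nit-3* had 12.0 and 19.9 RPKM (1.66, 1.29 to 2.15) and the activator gene *nit-2* had 66.3 and 130 RPKM (1.96, 1.63 to 2.37).

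Of 4 genes of the glyoxylate cycle and gluconeogenesis 1 was raised and none lowered. *acu-6*, which encodes phosphoenolpyruvate carboxykinase, had 5.97 RPKM (33 reads) in the wild type and 144 RPKM (1030 reads) in the mutant, a ratio of 24.2 (17.1 to 35.3). *acu-3*, the isocitrate lyase gene, had 67.3 and 48.7 RPKM (0.723, 0.618 to 0.844), and *acu-9*, the malate synthase gene, had 24.0 and 17.9 RPKM (0.746, 0.581 to 0.957). Of 9 heat shock genes, 1 was raised and none lowered, *hsp60*, which encodes the mitochondrial chaperonin, with 19.2 and 67.2 RPKM (3.49, 2.78 to 4.43). *hsp70-1* (1.11), *hsp80* (1.66) and *hsp98* (0.605) stayed within 2-fold as deposited, and *hsp98* fell below 0.5 when scaled.

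The 4 tubulin and actin genes were not called, with ratios from 1.17 to 1.71 and a median of 1.37, close to the median of all genes. Of 3 compared genes of cellulose breakdown *gh61-3* was raised, with 17 and 49 reads (2.23, 1.26 to 4.14), and *gh61-6* lowered, with 52 and 32 reads (0.477, 0.297 to 0.755).

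Among the genes with the highest ratios and at least 50 reads, NCU06964 was the only one with 0 reads in the wild type. It had 1215 reads (280 RPKM) in the mutant, which is at least 314-fold higher if the wild type is set to a floor of 3 reads in its library, and 2 reads in the Δ*mak-2* hyphae. NCU04630 went from 5 to 485 reads (75.2-fold, 32.0 to 233) and NCU03121 from 4 to 239 reads (46.3-fold, 17.8 to 171). The Δ*mak-2* hyphae had 3 reads of NCU04630 and 1 read of NCU03121, with ratios whose intervals span 1 (0.0846 to 2.80 and 0.00461 to 2.29).

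A pair of neighbouring genes of stress and glycerol metabolism stood among the strongest rises. *cut-1*, which encodes a phosphatase of the haloacid dehalogenase family, had 25.5 RPKM (105 reads) and 784 RPKM (4162 reads), a ratio of 30.7 (25.3 to 37.6). *gcy-1*, the glycerol dehydrogenase gene beside it, had 106 RPKM (275 reads) and 1153 RPKM (3856 reads), a ratio of 10.9 (9.61 to 12.3). The same genes had ratios of 16.0 and 5.71 in the Δ*mak-2* hyphae, against the shared wild-type library. NCU00848 had 3.21 and 141 RPKM (44.0, 25.6 to 83.0) and a ratio of 91.3 in the Δ*mak-2* hyphae, and NCU00754 had 8.29 and 139 RPKM (16.8, 12.2 to 23.9) and a ratio of 17.2.

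At the other end, NCU04695 had 72 reads (32.2 RPKM) in the wild type and 0 in the mutant, at least 31.0-fold lower against the same floor, while the Δ*mak-2* hyphae had 122 reads. NCU00751 had 86 reads and 1 read, a ratio of 0.00901 (0.000226 to 0.0516), and NCU10865 447 and 8 reads, a ratio of 0.0139 (0.00595 to 0.0276). NCU01060 had by far the highest level of this set, with 3090.5 RPKM (3281 reads) in the wild type and 92.7 RPKM (127 reads) in the mutant, a ratio of 0.0300 (0.0249 to 0.0358). In the Δ*mak-2* hyphae NCU01060 had a ratio of 0.873 and NCU10865 one of 0.0264.

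The 2 annotation terms of the mitochondrial ribosome had the highest medians among the groups of at least 20 genes. This ribosome, most of whose proteins are encoded in the nucleus, translates the few messages of the mitochondrial genome. Of 61 genes under either term 38 (62.3%) were raised, against 18.5% of all genes, and none was lowered, with 60 of 61 ratios above 1. The median level went from 24.4 to 55.8 RPKM and the median ratio was 2.18, or 1.64 when scaled. When scaled, 15 of the 61 (24.6%) stayed above 2-fold, against 8.57% of all genes. NCU01485 had the largest ratio, from 7.37 RPKM (24 reads) to 63.8 RPKM (268 reads), 8.65 (5.69 to 13.7), and NCU01894 went from 7.97 to 44.3 RPKM (5.56, 3.55 to 9.13).

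The cytosolic ribosome differed from the mitochondrial one. Of its 72 genes 1 was raised and none lowered, with a median ratio of 0.979, or 0.737 when scaled, at median levels of 872 and 867 RPKM. The 25 genes of ribosome biogenesis had 8 raised and none lowered (median 1.88, scaled 1.41). The 26 genes of respiratory complex I and the 31 of the proteasome had none called, with medians of 1.11 and 1.51. The genes of the mitochondrial ribosome are short, with a median length of 879 bases, and the shortest tercile of all genes had a lower median ratio (1.14) than the middle (1.34) and the longest (1.48). By mean RPKM the median ratio of all genes was 1.48 in the lowest tercile, 1.37 in the middle and 1.15 in the highest. The parts of length and level in the group medians were not tested.

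The same group was read in the other comparisons. In the Δ*mak-2* hyphae 22 of 58 genes of the mitochondrial ribosome were raised and none lowered (median ratio 1.77 to the same wild-type library), where 7.26% of all genes were raised and 6.41% lowered, and at the protoperithecial stage of the Δ*mak-1* mutant 2 of 61 were raised and none lowered (median 1.22), where 11.0% of all genes were raised and 8.35% lowered. Under the wider term mitochondrion, 57 of 273 (20.9%) were raised in the present comparison and 3 lowered, close to the 18.5% raised over all genes. The raised genes chosen here for their high ratios are *tim50*, which encodes a subunit of the inner membrane translocase, from 11.7 to 57.3 RPKM (4.90, 3.58 to 6.84), and *cyc-1*, the cytochrome c gene, from 98.1 to 368 RPKM (3.76).

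**Figure D4:**
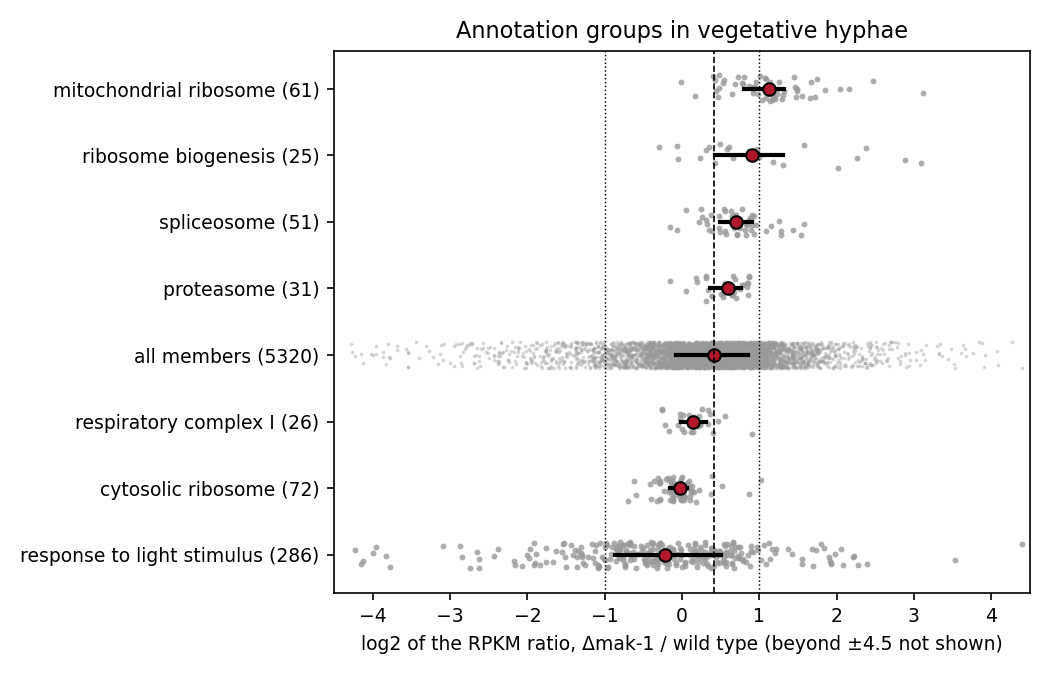
RPKM ratio of Δ*mak-1* to wild-type hyphae as log2 for the genes of 7 annotated groups and for all genes, with a point at the median, a thick line over the middle quartiles, dotted lines at 2-fold and a dashed line at the median of all genes. The mitochondrial ribosome has the highest median (2.18), the cytosolic ribosome lies near equal values (0.979), and response to light stimulus is lowest (0.857).

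As deposited, some growth terms had shares of raised genes somewhat above that of all genes. Conidiophore development did not, with 7 of 46 genes (15.2%) raised and 1 lowered. Of 88 genes under hyphal growth 21 (23.9%) were raised and 1 lowered (median ratio 1.55), and of 63 under conidium formation 17 (27.0%) were raised and 3 lowered (median 1.57), against 18.5% raised over all genes. When scaled, 9 genes of hyphal growth were raised and 3 lowered, and 6 of conidium formation were raised and 4 lowered. Over all genes 8.57% were then raised and 11.4% lowered. Besides *mek-1* and *os-5* the raised genes of these terms include *vad-5*, with 4.81 and 26.2 RPKM (5.44), *ptk-2*, a kinase gene, with 41.7 and 224 RPKM (5.38), and *nca-2*, which encodes a calcium pump, with 9.28 and 46.8 RPKM (5.05).

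The calls were then set beside those of the Δ*mak-1* mutant at the protoperithecial stage, a comparison that shares no library with the present one. Of the 983 genes raised in hyphae 128 were raised there, which is 13.02% of the hyphal list and 18.1% of the 706 genes raised at that stage. Of all 5320 genes 461 (8.67%) were raised and 316 (5.94%) lowered at that stage. Of the 360 genes lowered in hyphae 75 were lowered there, 20.8% of the hyphal list and 14.0% of the 536 genes of the other. In opposite directions, 57 genes lowered in hyphae (15.8%) were raised at the protoperithecial stage, and 23 of these are annotated to response to light stimulus. This term holds 286 (5.38%) of the 5320 genes and 62 (17.2%) of the 360 lowered ones. Whatever their call in hyphae, 89 (31.1%) of these 286 genes were raised at the protoperithecial stage and 32 (11.2%) lowered. Another 41 genes raised in hyphae (4.17%) were lowered there.

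Of the 20 named genes called in opposite directions, 8 belong to the lists of light response and conidiation. Being on a list was itself a rule for naming a gene, so this count says nothing about these lists. *con-10* had 106 and 3.70 RPKM in hyphae and 402 and 12747 RPKM at the protoperithecial stage, ratios of 0.0348 and 31.7. *al-1* had 1049.8 and 232 RPKM in hyphae and 71.3 and 5107 RPKM at the protoperithecial stage, ratios of 0.221 and 71.6. Over the list of light response the median ratio was 0.576 in hyphae and 6.38 at the protoperithecial stage, where 11 of 16 genes were raised. Medium, surface, temperature and culture time changed together with the stage. The protoperithecial cultures were kept in the dark, while the light of the hyphal cultures is not given. The difference between stages was not tested.

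*acu-6* and *cut-1* went the other way. *acu-6* had 38.9 and 9.23 RPKM at the protoperithecial stage, a ratio of 0.237 against 24.2 in hyphae, and *cut-1* had 135 and 29.7 RPKM, a ratio of 0.220 against 30.7. The genes *mek-1*, *pkc-1* and *eas* were raised at both stages, *eas* with ratios of 3.56 and 10.8.

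**Figure D5:**
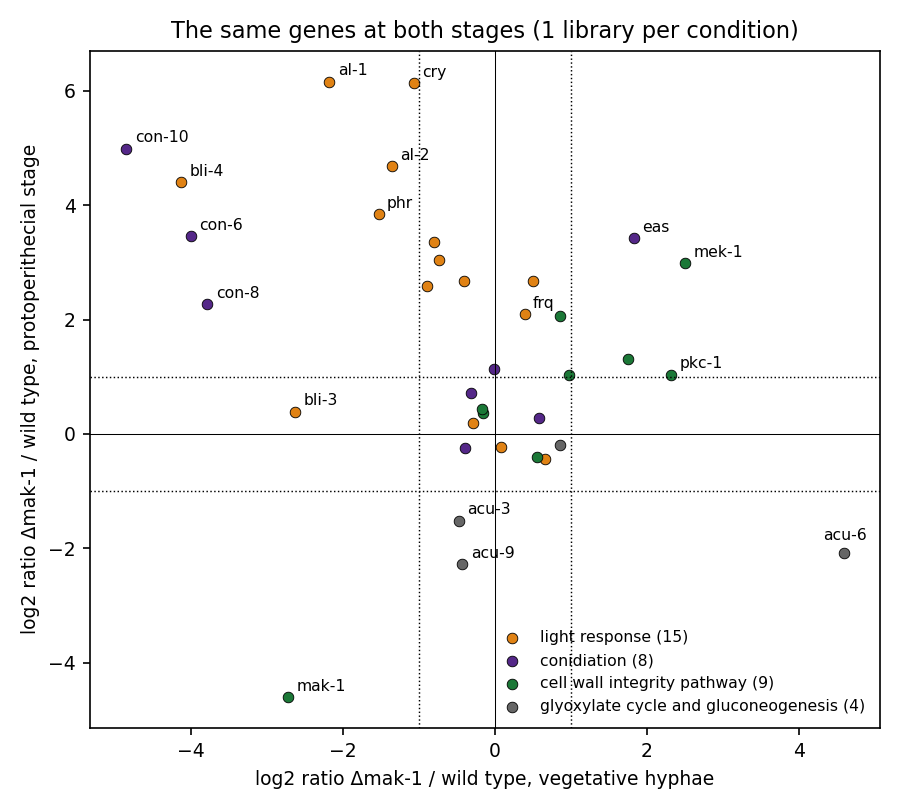
log2 RPKM ratio of the Δ*mak-1* mutant to the wild type in hyphae (horizontal axis) and at the protoperithecial stage (vertical axis) for genes of 4 lists above 10 RPKM in at least 1 library at each stage, with 1 library per condition and dotted lines at 2-fold. *con-10*, *bli-4*, *al-1* and *con-6* lie at the upper left, lowered in hyphae and raised at the protoperithecial stage, while *mek-1*, *pkc-1* and *eas* lie at the upper right and *acu-6* at the lower right.

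Called genes were also read by their place in the NC12 assembly. Where the next gene was compared too, it was raised for 22.7% of 551 raised genes and lowered for 25.5% of 184 lowered genes, against 18.5% and 6.45% of the genes placed there. Lowered genes formed 5 runs of 3 and 1 run of 4 adjacent genes. One such run is NCU01058, *gh47-3* and NCU01060, with ratios of 0.0258, 0.114 and 0.0300, and *gh47-3*, a glycosyl hydrolase gene, had 42.8 and 4.87 RPKM. Another is NCU08154, NCU08155 and NCU08156, with ratios of 0.406, 0.0618 and 0.144, in which NCU08155 had 943 and 58.2 RPKM. Raised genes formed 15 runs of 3 and 2 of 4, among them NCU00575, NCU00574 and NCU00573, with ratios of 3.95, 12.4 and 5.02.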

How the data were processed

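RNA was sequenced by the authors from 6 pooled samples, 1 per strain and stage, with CASAVA 1.8 named in the submitters' processing notes. Aligner, read counter, strand handling and genome build: not given in the sources used here. Per gene, RPKM values were deposited. The ratio columns that the authors added were left out, and the deposited descriptions by sequence similarity were not used for gene roles, because some name another gene. Whole reads were recovered from the steps of the values for all 8913 entries above 0 in at least 2 libraries, with tolerances of 2e-07 (relative) or 0.001 (absolute). A factor shared by all libraries can be missed, so that some reads may be too few and their intervals too wide. The 320 entries above 0 in a single library hold no gene of this comparison.

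No test was run, since each group has 1 library. A call is a ratio above 2 or below 0.5 with more than 10 RPKM in at least 1 library, and intervals are exact 95% intervals of 2 read counts. The recovery and the intervals were tested on simulated data. Names and gene order came from RefSeq (NC12), to which 5221 of the 5320 genes matched, 882 with a symbol. For *pkc-1* and β-tubulin, named otherwise there, the locus was used. *fks* and *do* are 1 locus.

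The genes, lists and groups were chosen with earlier results of these data known. Named are the kinases and partners of 3 pathways, called or defining list members, the 15 highest and 15 lowest ratios with at least 50 reads, the 10 largest rises and falls in RPKM, leading members of annotated groups of at least 20 genes, the 5 largest opposite calls at the 2 stages and the 3 genes on each side of *mak-1*. The text gives a selection of these. Some items were withheld and are not reported here, though list counts and medians include them. The cellular component groups, other mitochondrial genes and runs of adjacent genes were chosen after their values were seen. Alternatives were 4 scalings, fold thresholds of 1.5 and 3, RPKM limits of 1, 20 or 10 in both libraries, 1 RPKM added, whole intervals beyond the threshold and NCU loci only. A minimum of 50 reads was added after seeing the data. Computations used scipy 1.17.1, pandas 2.3.3 and numpy 2.4.6 under Python 3.11.15, with plots by matplotlib 3.10.9.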

Additional observations from a re-analysis of the deposited data

Results flagged for a closer look

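The genes below were called in opposite directions in the Δ*mak-1* mutant at the 2 stages, with 1 library each, and the difference between the stages was not tested. Lowered in hyphae and raised at the protoperithecial stage were *con-10* (ratio of 0.0348 in hyphae and 31.7 at the protoperithecial stage), *bli-4* (0.0572 and 21.1), *al-1* (0.221 and 71.6), *mig-12* (0.117 and 23.7), *con-6* (0.0628 and 10.9), *cry* (0.480 and 70.2), NCU01060 (0.0300 and 2.63) and *con-8* (0.0728 and 4.84). The same held for *al-2* (0.391 and 25.7), *phr* (0.347 and 14.4), NCU06420 (0.250 and 9.11), *ncw-5* (0.273 and 5.65), *acw-10* (0.488 and 2.38) and *ccg-13* (0.433 and 2.10). Raised in hyphae and lowered at the protoperithecial stage were NCU01380 (14.3 and 0.0692), *cut-1* (30.7 and 0.220), *acu-6* (24.2 and 0.237), *gcy-1* (10.9 and 0.187), NCU01633 (3.38 and 0.208) and *gln-1* (3.44 and 0.398).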

How the results depend on the processing

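The counts of 983 raised and 360 lowered genes moved with the scaling. They were 405 and 606 with the median of ratios, 525 and 522 with the upper quartile, 412 and 595 with the median of ratios over 6 libraries, and 282 and 756 with β-tubulin. A fold threshold of 1.5 gave 2068 and 612, one of 3 gave 329 and 193, an RPKM limit of 1 gave 1581 and 804, more than 10 RPKM in both libraries gave 550 and 193, and the whole interval beyond the threshold gave 403 and 203. An RPKM limit of 20, 1 RPKM added, NCU loci only and at least 50 reads changed each count by less than 1.5 times. Of 49 named raised genes 37, 40, 37 and 32 stayed above 2-fold under the 4 scalings, in the same order. All 4 scalings divide the ratios by a factor above 1, from 1.22 to 1.49. The 44 named lowered genes could therefore only stay below 0.5, and their number says nothing about scaling. No paired analysis was possible because each group holds 1 library. At 10 RPKM a gene of median length has 35.5 or 45.8 reads, so ratios near 2 of low genes are loosely bounded, and the spread between cultures is unknown. The median ratio also fell with level, from 1.48 in the lowest tercile to 1.15 in the highest.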

Other observations

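Other annotated groups of the same comparison had medians on both sides of that of all genes (1.33), of which 18.5% were raised and 6.77% lowered. Of 51 genes of the spliceosome 8 were raised and none lowered (median ratio 1.63), and of 25 genes of RNA transport 7 were raised and none lowered (1.60). When scaled, 3 genes of the spliceosome were raised and none lowered, and of RNA transport none was raised and 1 lowered. Of 20 genes of amino sugar metabolism 6 were raised and 1 lowered (1.48), or 2 and 2 when scaled, among them NCU08228, with 9.51 RPKM (63 reads) in the wild type and 72.8 RPKM (622 reads) in the mutant, a ratio of 7.65 (5.90 to 10.1). The 39 genes annotated to response to double-stranded RNA had 6 raised and 6 lowered (1.04), or 4 raised and 9 lowered when scaled, and the lowest of them was NCU09650, with 116 and 7.94 RPKM (68 and 6 reads), a ratio of 0.0684. *cys-3*, which encodes the activator of sulfur acquisition, was raised from 123 to 431 RPKM (321 and 1449 reads), a ratio of 3.50, and the NC12 assembly places it at the end of a run of 3 raised genes, with ratios of 2.24 for NCU03535 and 2.77 for NCU03534.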
